A study of Mus musculus with 6 samples.

Results

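Skeletal muscle contracts through the sarcomere, and the 41 genes described here encode its motor, thin filament, calcium switch, scaffold and energy supply. They were measured by bulk RNA-seq in dorsal root ganglia, which lie along the spinal cord and house the cell bodies of sensory neurons. The members were taken from a named list of muscle genes, matched by Ensembl gene identifier, and all 41 of 41 were found among the 54532 gene rows of the deposited table. The list was drawn up with earlier results of the same comparison known, so the values below describe the genes. Counts of members called by fits over all genes are given as a description, with no p-value for any member.

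All mice were C57BL/6 and 8 weeks old. In the Hdac2 conditional knockout (Hdac2 cKO, 3 libraries; genotype Adv-Cre+/hdac2-flop++) the Advillin promoter drove Cre recombinase, as a rule in primary sensory neurons, on a background of floxed alleles of Hdac2, a histone deacetylase. The control group (WT, 3 libraries; genotype hdac2-flop++) consisted of littermates that carried the floxed alleles without Cre, so the groups also differed by Cre itself. No group carried Cre without floxed Hdac2. The study asked what loss of HDAC2 in sensory neurons does to genes of chronic pain, and muscle was not its subject. The sources used here do not say how many mice each library stands for, so the spread between libraries may be technical in part.

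In a sarcomere, myosin heavy chains with their light chains form the thick filament and pull on thin filaments of actin, tropomyosin and troponin. Calcium binding to troponin C lets the filaments slide, titin and nebulin set their lengths, and Z-disc and M-band proteins anchor them. Fast and slow skeletal fibres use different members of the myosin and troponin families. Heart muscle shares part of the slow set and has its own forms of actin, troponin T, troponin I and myosin binding protein. Skeletal muscle fibres are not a cell type of the ganglion itself.

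Values are normalised read counts, that is, reads divided by 1 size factor per library, and 6 values in a row stand for WT 1, 2 and 3 and then Hdac2 cKO 1, 2 and 3. Total reads per library ranged from 18943595 to 42070531. The targeted gene Hdac2 stood at 2816, 1715 and 3498 in WT and at 499, 372 and 535 in Hdac2 cKO, so its level followed the labels. Markers of sensory neurons were abundant in every library, with Tubb3, a neuronal tubulin, between 57849 and 73237. Among the WT libraries 2 stood apart. In WT 3, 1079 of the 18410 tested genes were at 0, against 39 to 119 in the other libraries. WT 2 held several heart muscle and liver transcripts at higher levels than any other library, and it was the 1 library without an excess of even read counts among low genes (42.4% even counts, against 60.2 to 64.4% elsewhere). The overall and class values, and the members these 2 libraries moved most, are therefore given with and without them. The libraries also differed in sex-linked transcripts, which were looked at after the data were seen, and the labels used here give no sex. Eif2s3y, a gene of the Y chromosome, stood at 1.76, 1152 and 1219 in WT and 0, 809 and 0 in Hdac2 cKO, and Xist, the RNA of the inactive X, at 11489, 11.9 and 192 against 10623, 1.97 and 7474. WT 2, WT 3 and cKO 2 were thus high in the Y-linked gene and the other 3 libraries low.

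Muscle transcripts were present in all 6 libraries and lower in Hdac2 cKO. The summed level of the 41 genes was 19307, 10575 and 8056 in WT and 2195, 3900 and 2346 in Hdac2 cKO. All 3 WT sums lay above all 3 Hdac2 cKO sums, and the WT mean (12646 ± 5904, SD, n = 3) was 4.49 times the Hdac2 cKO mean (2814 ± 944, n = 3). Scaled to library totals (RPM) the genes made up 698, 375 and 271 RPM in WT and 78.2, 139 and 79.7 in Hdac2 cKO. Among the libraries high in Eif2s3y (WT 2 and WT 3 against cKO 2) the ratio of mean sums was 2.39 and 38 of the 41 members were lower in Hdac2 cKO, and among those low in it (WT 1 against cKO 1 and cKO 3) the ratio was 8.50 and 39 were lower. In bulk tissue, fewer muscle cells and less RNA per muscle cell cannot be told apart.

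A gene entered the comparison across all genes (is called tested) when it reached 10 in at least 3 libraries, which 40 of the 41 members did. Of these 40, 39 had a lower mean in Hdac2 cKO and 1, Tmod4, a higher one, on the log2 (value + 1) scale used for all fold changes here, which understates changes of low genes. The median log2 fold change was -2.46 over the 40 tested members and -2.44 over all 41, against 0.06 over all tested genes, of which 44.7% were lower. In 31 members all 3 Hdac2 cKO values lay below all 3 WT values, and in 0 members above. The same was true of 3.91% of all tested genes in the lower direction and 4.63% in the higher, and since this contrast is the one known when the list was made, nothing is read from the difference. When a library was left out the filter was applied again, which changed the set of tested members. Groups of fewer libraries also separate more easily. For both reasons, counts without overlap are then not comparable with the 31. Without WT 2 the median over the members still tested was -2.48 and 29 did not overlap. Without WT 3 these were -2.58 and 34. Over all 41 members the median was -2.65 without WT 2 and -2.80 without WT 3.

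**Figure D1:**
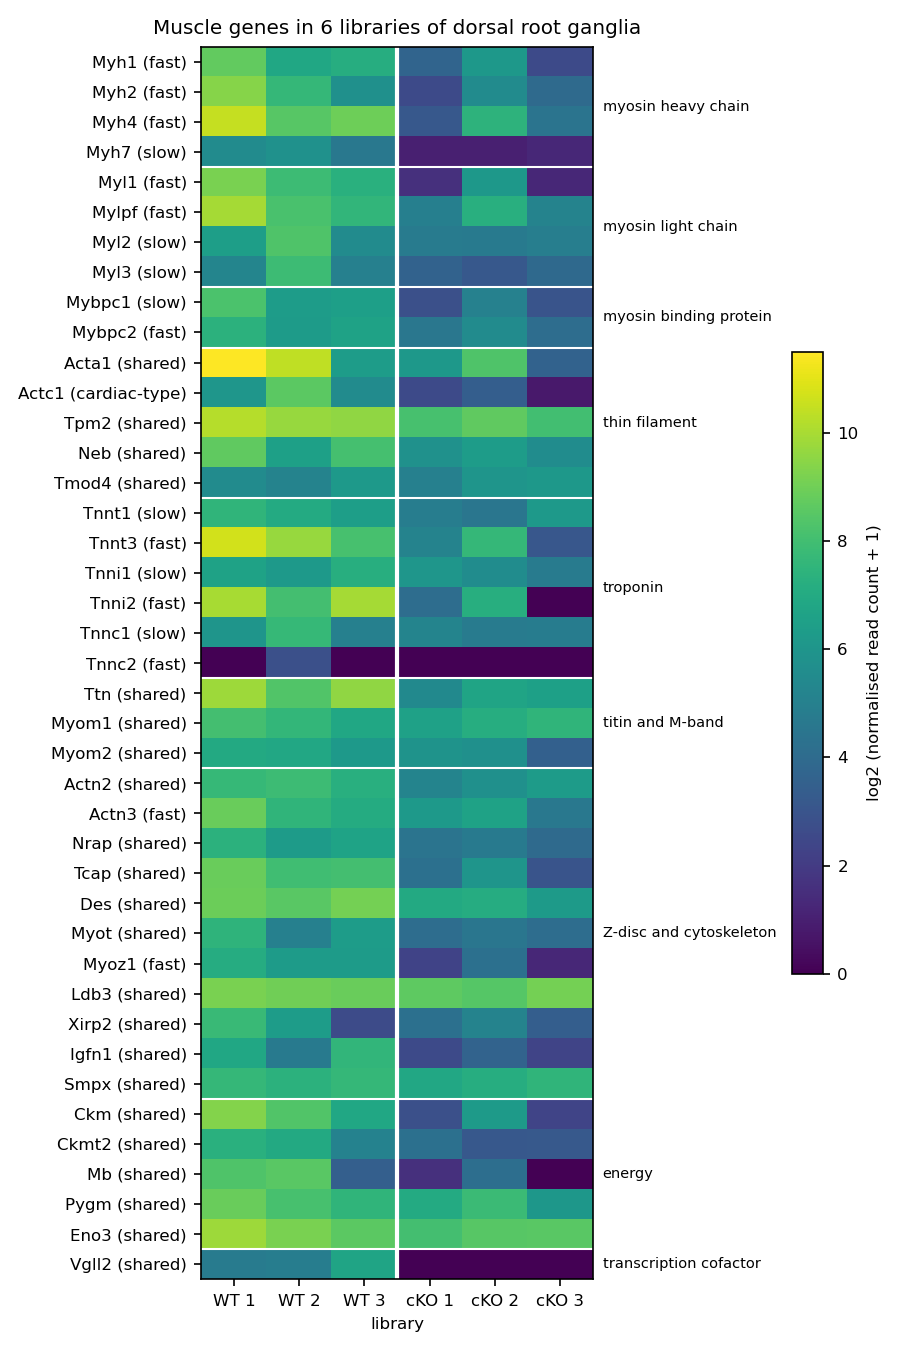
Levels of the 41 muscle genes (rows, grouped by role, with the fibre class in brackets) in the 6 libraries (columns), as log2 (normalised read count + 1) from dark, 0, to yellow, highest. The 3 columns of Hdac2 cKO are darker than those of WT in most rows, while Ldb3, Smpx and Tmod4 look alike throughout, and Tnnc2 is dark everywhere.

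Fewer members were well detected in Hdac2 cKO. In WT, 39 members were at 10 or more in all 3 libraries, whereas in Hdac2 cKO 22 were, so 17 members passed through WT while 1 or more Hdac2 cKO libraries were under 10. The members' peaks were spread over the WT libraries. WT 1 held the highest value of 27 members, WT 2 of 8 and WT 3 of 6, and Hdac2 cKO libraries of 0. WT 3 was the lowest WT library for 24 members, WT 2 for 15 and WT 1 for 2. Among Hdac2 cKO libraries, cKO 2 was highest for 25 of the 39 members with any reads there, cKO 3 for 10 and cKO 1 for 4.

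Promoters of 4 members are shown because they represent the skeletal actin, its cardiac-type paralog, the most abundant myosin heavy chain and the muscle intermediate filament. Each line gives the 250 bases before the RefSeq start of the gene (GRCm38.p6), 5′ to 3′ on the gene's strand, with the motifs CAGCTG, MEF2, CArG, CATTCC and TATAAA in capitals where they occur.
Acta1: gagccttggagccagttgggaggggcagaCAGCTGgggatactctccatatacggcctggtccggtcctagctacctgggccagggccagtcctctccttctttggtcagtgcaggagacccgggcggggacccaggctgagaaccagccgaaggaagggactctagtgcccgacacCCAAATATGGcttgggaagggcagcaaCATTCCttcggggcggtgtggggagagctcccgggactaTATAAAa
Actc1: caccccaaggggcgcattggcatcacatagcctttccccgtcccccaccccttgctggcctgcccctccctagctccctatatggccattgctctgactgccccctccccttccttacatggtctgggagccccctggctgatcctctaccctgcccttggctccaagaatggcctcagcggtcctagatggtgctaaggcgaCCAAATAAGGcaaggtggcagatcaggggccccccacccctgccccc
Myh4: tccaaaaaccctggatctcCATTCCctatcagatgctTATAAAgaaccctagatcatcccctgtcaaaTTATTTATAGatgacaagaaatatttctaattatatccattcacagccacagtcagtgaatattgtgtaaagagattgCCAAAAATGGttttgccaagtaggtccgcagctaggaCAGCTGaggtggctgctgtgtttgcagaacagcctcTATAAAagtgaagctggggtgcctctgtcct
Des: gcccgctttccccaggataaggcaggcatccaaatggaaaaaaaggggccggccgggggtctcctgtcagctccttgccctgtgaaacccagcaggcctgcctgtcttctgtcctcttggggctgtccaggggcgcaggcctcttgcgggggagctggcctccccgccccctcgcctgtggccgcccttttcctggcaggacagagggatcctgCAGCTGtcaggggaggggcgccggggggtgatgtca
The windows lie at chr8:123894776-123895025 on the minus strand for Acta1, chr2:114052876-114053125 on the minus strand for Actc1, chr11:67237562-67237811 on the plus strand for Myh4 and chr1:75360042-75360291 on the plus strand for Des. In Acta1 the capitals mark, from left to right, CAGCTG at 221, CArG at 73, CATTCC at 46 and TATAAA at 7 bases before the RefSeq start, which lies upstream of the GENCODE start. Actc1 holds a CArG box at 47 bases before the RefSeq start. Its whole window lies inside the GENCODE gene, whose own start on the minus strand is at chr2:114053548. Myh4 holds CATTCC at 231, TATAAA at 213 and 31, MEF2 at 182, CArG at 104 and CAGCTG at 67 bases before the RefSeq start. This start lies upstream of the GENCODE start at chr11:67238029. Des holds CAGCTG at 36 bases before the RefSeq start, which lies upstream of the GENCODE start at chr1:75360329.

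The motifs are ones known from promoters of muscle genes, namely the E-box CANNTG with its forms CAGCTG and CACCTG, which it contains, the MEF2 and CArG boxes, the MCAT element CATTCC and the TATA box TATAAA. All were searched on both strands except TATAAA, which was searched on the gene's strand. RefSeq promoters were matched for 33 of the 41 members (39 promoters, as some genes have several starts). CAGCTG occurred in 43.59% of the members' promoters and in 13.0% of all 32851 promoters of the same length. CANNTG occurred in 84.62% against 66.22%, and CACCTG in 23.08% against 17.22%. The CArG box was found in 17.95% of the members' promoters against 1.47% of all, MEF2 in 10.26% against 2.92%, CATTCC in 23.08% against 12.64% and TATAAA in 10.26% against 7.59%. These shares describe letters in a window and say nothing of which factor binds there.

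Myosin heavy chains, the motor proteins of the thick filament, were each lower in Hdac2 cKO. Myh4 encodes the heavy chain of the fastest fibres (type 2b) and stood at 1427, 362 and 499 in WT and 8.08, 174 and 20.3 in Hdac2 cKO. Every Hdac2 cKO value lay below every WT value, and cKO 2 stood far above the other two knockout libraries. The log2 fold change of Myh4 was -4.30 (SE 1.07 from the limma fit, n = 3 per group, as for all SEs below). Myh1, the heavy chain of type 2x fibres, stood at 421, 113 and 143 against 12.1, 69.8 and 4.90, and Myh2, that of type 2a fibres, at 676, 198 and 53.1 against 5.05, 46.2 and 14.7. WT 1 was highest for these 3 fast genes. The groups of Myh1 and Myh2 did not overlap, although in Myh2 the highest knockout library, cKO 2, came near the lowest control library, WT 3. Myh7, the heavy chain of slow fibres and of heart muscle, stood at 45.0, 55.1 and 23.5 against 1.01, 0.983 and 1.40, which are 51, 37 and 23 reads in WT and 1, 1 and 2 reads in Hdac2 cKO. Its log2 fold change was -4.23 (SE 0.86).

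Among heavy chains compared per kilobase of exon, Myh4 was the largest in all WT libraries, with 58.8, 53.7 and 71.7% of the 4 chains, and Myh7 the smallest, with 1.29, 5.70 and 2.36%. In Hdac2 cKO, Myh4 made up 33.0, 62.2 and 53.0%, and Myh7 2.88, 0.245 and 2.55%. The shares of Hdac2 cKO overlapped those of WT for all 4 chains, and those of cKO 1 and cKO 3 rest on few reads, 8 and 29 of Myh4. The 3 fast genes lie side by side on chromosome 11 (Myh2 at chr11:67171027-67197517, Myh1 at chr11:67200052-67224575 and Myh4 at chr11:67238029-67260446, all on the plus strand of GRCm38), with gaps of 2.5 and 13.5 kb. Their coding sequences were 88.22 to 91.12% identical, with identical runs of up to 268 bases, so reads can be shared and their split among the 3 is uncertain. The same holds for Myh7 and its cardiac neighbour Myh6, 3.8 kb away and 91.76% identical.

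Light chains, which stiffen and regulate the myosin head, were also lower in Hdac2 cKO, 4 of 4 without overlap (3.91% of all tested genes). Mylpf, the regulatory light chain of fast fibres, stood at 977, 295 and 187 against 30.3, 151 and 34.3, and Myl1, the essential light chain of fast fibres, at 581, 237 and 155 against 2.02, 67.8 and 1.40. Myl1 was nearly undetected in cKO 1 and cKO 3, at 2 reads in each, while cKO 2 held 69 reads. Their slow and cardiac counterparts peaked in another library. Myl2, the slow and ventricular regulatory chain, stood at 84.7, 320.1 and 45.0 against 26.3, 24.6 and 29.4, and Myl3, the slow and ventricular essential chain, at 37.1, 232 and 30.7 against 11.1, 7.86 and 14.0. Both were highest in WT 2, several times above WT 1 and WT 3, and did not overlap between the groups. Without WT 2 the log2 fold change of Myl2 was -1.18 in place of -1.97 and that of Myl3 was -1.57 in place of -2.48.

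Myosin binding protein C tethers the thick filament and tunes its motors. The slow form Mybpc1 stood at 304, 80.4 and 87.9 against 6.06, 32.4 and 6.99 and the fast form Mybpc2 at 164, 78.9 and 96.1 against 22.2, 46.2 and 16.1. Neither overlapped between the groups, and both were highest in WT 1. Mybpc1, the slow form by name, had the profile of the fast genes: over the 6 libraries its log2 level correlated with the summed fast genes by 0.987 (Pearson's r, n = 6) and with Myl2 by 0.599. Myl2 itself was highest in WT 2. Other slow genes varied in these values: 0.752 and 0.349 for Tnni1, 0.854 and 0.850 for Myh7, and 0.614 and 0.729 for Tnnt1. For Myl3 they were 0.572 and 0.984, and for Tnnc1 0.505 and 0.973. The 6 points share library effects and the group difference, so the values only describe the profile.

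Sarcomeric actin, the core of the thin filament, came from 2 genes. Acta1, skeletal actin (ENSMUSG00000031972, chr8:123891769-123894751, minus strand), had the highest WT mean per kilobase, at 932 ± 911 normalised counts per kilobase (n = 3) against 87.7 ± 108 in Hdac2 cKO. That mean rests on WT 1 and WT 2, since WT 3 held 53.2 per kilobase, below Tnni2 at 647. Per gene it stood at 2876, 1336 and 81.8 against 69.7, 323 and 11.2. WT 3 lay below cKO 2, so the groups overlapped, and the log2 fold change of -3.38 (SE 1.55) became -4.91 without WT 3 and -2.90 without WT 2. Actc1, the actin of heart muscle, stood at 64.4, 384 and 45.0 against 5.05, 9.83 and 0.699, highest in WT 2 and not overlapping. Its log2 fold change was -4.45 (SE 1.07), and -3.51 without WT 2. Actc1 made up 2.08, 21.4 and 34.3% of the 2 actins per kilobase in WT and 6.44, 2.80 and 5.60% in Hdac2 cKO, so WT 1 lay below all Hdac2 cKO libraries and WT 2 and WT 3 above them. The coding sequences of the 2 genes were 86.3% identical, with no identical run above 29 bases.

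The other thin filament genes ranged from clear separation of the groups to none. Tpm2, a tropomyosin that covers the myosin sites of actin, stood at 1189, 852 and 755 against 281, 415 and 253, and the lowest WT library lay well above the highest Hdac2 cKO library. Its log2 fold change was -1.56 (SE 0.29). Nebulin, the ruler of thin filament length encoded by Neb, stood at 409, 90.8 and 276 against 55.6, 79.6 and 47.6, with WT 2 close above cKO 2. Tmod4, a tropomodulin that caps the pointed end of the filament, stood at 45.9, 34.2 and 70.5 against 31.3, 61.9 and 69.9. The groups of Tmod4 overlapped fully, and its log2 fold change of 0.10 ranged from -0.14 to 0.45 when each library was left out in turn.

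Troponins T and I, which hold the calcium switch on the thin filament, did not overlap between the groups in either fibre type. Tnnt3, fast troponin T, stood at 1662, 849 and 284 against 34.4, 202 and 7.69, and its slow counterpart Tnnt1 at 180.0, 128 and 85.9 against 28.3, 21.6 and 71.3. Both were lower in every Hdac2 cKO library than in any WT library, but cKO 3 was the lowest library of Tnnt3 and the highest Hdac2 cKO library of Tnnt1. Tnni2, fast troponin I, stood at 1024, 262 and 969 against 16.2, 146 and 0, with 0 reads in cKO 3 and 149 in cKO 2. Its log2 fold change of -5.55 (SE 1.65) ran from -7.27 to -3.67 when each library was left out. Slow troponin I, Tnni1, stood at 96.2, 73.0 and 148 against 64.7, 47.2 and 26.6, highest in WT 3, and its log2 fold change was -1.21 (SE 0.50). Tnni2 and Tnnt3 are neighbours on chromosome 7, 54.4 kb apart.

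Troponin C binds the calcium. Tnnc1, the slow and cardiac form, stood at 63.5, 208 and 30.7 against 35.4, 26.5 and 27.3, and its groups overlapped since WT 3 lay below cKO 1. Its log2 fold change was -1.31, and -0.57 without WT 2. Tnnc2, the fast form, was the member that did not pass the filter. It held 4 reads in WT 2 and 0 in all other libraries, although the other fast troponins were among the most abundant members. In the GENCODE annotation 74.0% of the exon bases of Tnnc2 are shared with Ube2c on the opposite strand. The sources used here do not say whether the counting kept strand, and the part of this overlap in the low value was not tested. No fold is given for Tnnc2.

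Titin, the giant spring that runs from Z-disc to M-band, is encoded by Ttn and stood at 889, 331 and 762 against 43.4, 105 and 90.9. The groups were far apart, and the log2 fold change was -3.01 (SE 0.50). The M-band proteins that cross-link the thick filaments were lower by less. Myom2 stood at 127, 116 and 71.5 against 58.6, 53.1 and 10.5, without overlap, and Myom1 at 268, 194 and 114 against 94.0, 142 and 183, where cKO 2 and cKO 3 lay above WT 3. The log2 fold changes were -1.63 for Myom2 and -0.43 for Myom1.

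Z-disc and cytoskeletal members, 11 genes, were all lower in the mean, and 8 did not overlap (3.91% of all tested genes in this direction). Des, desmin, the intermediate filament that ties neighbouring Z-discs, stood at 476, 378 and 549 against 123, 136 and 74.8, with a log2 fold change of -2.09 (SE 0.33). Its groups were well separated. Tcap, the titin cap at the Z-disc, stood at 461, 252 and 264 against 18.2, 61.9 and 6.99, and Myoz1, the fast-fibre calsarcin, at 137, 78.9 and 78.7 against 4.04, 17.7 and 1.40. In both, cKO 2 was the highest of the Hdac2 cKO libraries and lay far below every WT library. The α-actinins cross-link actin at the Z-disc. Actn2, the form of all fibres and of heart, stood at 208, 231 and 153 against 35.4, 53.1 and 79.0, and Actn3, the fast-fibre form, at 459.7, 182 and 134 against 71.7, 97.3 and 23.1. Neither overlapped between the groups, and within Hdac2 cKO the library cKO 3 was highest for Actn2 and lowest for Actn3.

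Among the remaining Z-disc genes, Nrap, which links actin to the ends of myofibrils, stood at 168, 78.9 and 99.1 against 20.2, 24.6 and 14.7. Myotilin, encoded by Myot, stood at 175, 31.3 and 80.7 against 16.2, 21.6 and 16.1, and Igfn1, an immunoglobulin-domain protein of the Z-disc, at 113, 25.3 and 190.1 against 5.05, 11.8 and 4.20. None of these 3 genes overlapped between the groups, and WT 2 was the lowest WT library of each. Xirp2, an actin-binding protein of muscle attachments, stood at 219.7, 81.9 and 5.11 against 18.2, 34.4 and 9.79, where WT 3 lay below all Hdac2 cKO libraries. Ldb3, the Z-disc protein cypher, stood at 573, 515 and 463 against 401, 353 and 536, and Smpx, a small muscle protein, at 199, 164 and 199 against 116, 143 and 179.7. These last 2 overlapped, with log2 fold changes of -0.28 and -0.37, and Ldb3 kept between 353 and 573 in every library.

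The energy genes split in the same way. Ckm, the muscle creatine kinase that rebuilds ATP from phosphocreatine, stood at 652, 328 and 115 against 6.06, 75.7 and 4.20, with a log2 fold change of -4.37 (SE 1.12), and -5.04 without WT 3. Its mitochondrial partner Ckmt2 stood at 158, 127 and 32.7 against 18.2, 7.86 and 8.39. Both separated the groups. Mb, the oxygen store myoglobin, stood at 325, 371 and 10.2 against 2.02, 16.7 and 0, so that WT 1 and WT 2 were far above the rest and WT 3 lay within the range of Hdac2 cKO. Its log2 fold change of -4.88 (SE 1.62) was -6.53 without WT 3, and 31.9% of its exon bases are shared with genes on the opposite strand.

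Pygm, the muscle glycogen phosphorylase, stood at 467, 286 and 181 against 129, 230.0 and 66.4, and Eno3, the muscle enolase of glycolysis, at 881, 584 and 383 against 269, 361 and 378. Pygm overlapped through cKO 2, and Eno3 did not overlap, though WT 3 and cKO 3 nearly met. Their log2 fold changes were -1.20 and -0.81, smaller than those of the other 3 energy genes.

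Vgll2, a transcription cofactor of the muscle lineage, was the one regulator among the members. It stood at 26.5, 28.3 and 102 in WT, that is 30, 19 and 100 reads, and at 0 reads in all 3 Hdac2 cKO libraries. Against an assumed floor of 3 reads over the Hdac2 cKO group it was 61.5-fold lower, with reads scaled to library totals. This bound is approximate. It pools the WT reads, 100 of 149 from WT 3. It also counts single reads, while 60.7 to 64.4% of low read counts in the Hdac2 cKO libraries were even. Set at this bound, Vgll2 stays below the median of the members, which does not move.

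**Figure D2:**
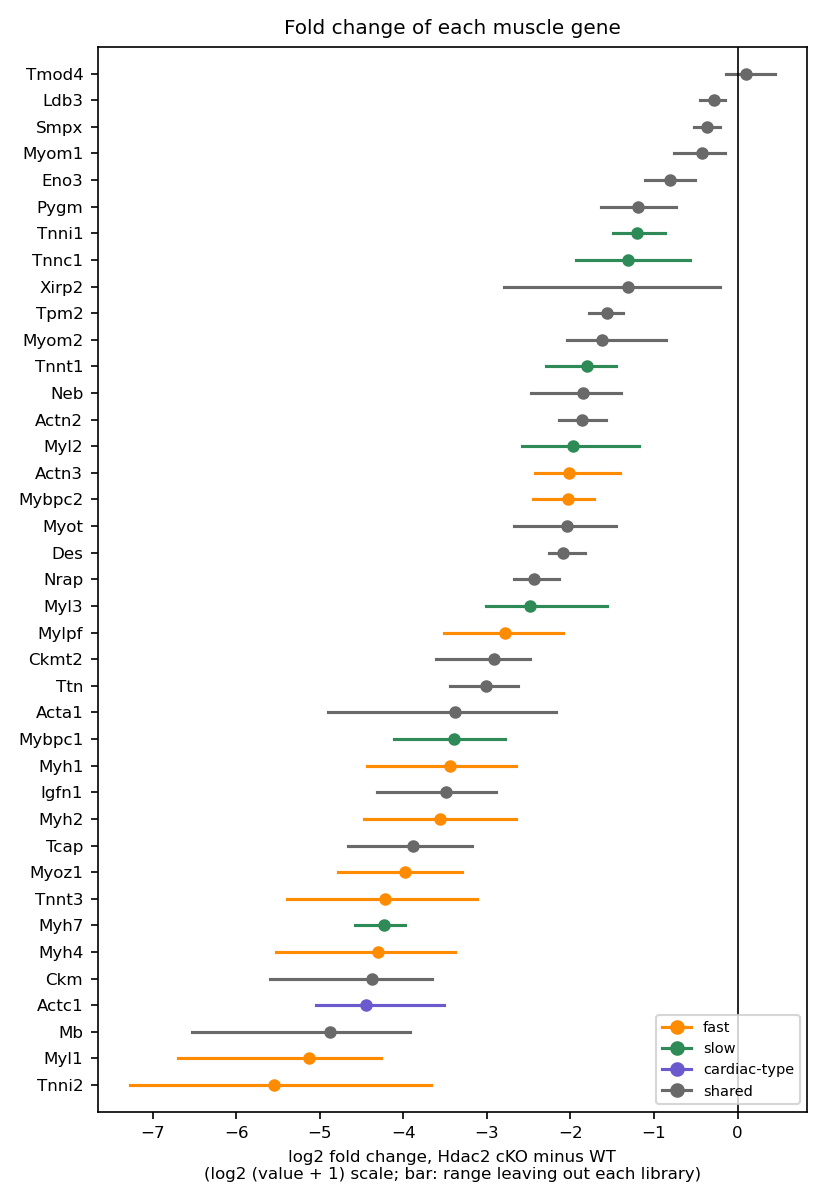
Log2 fold change of 39 muscle genes (mean log2 (value + 1) in Hdac2 cKO minus that in WT), coloured by fibre class, with bars from the lowest to the highest value when each of the 6 libraries was left out in turn. Tnnc2 and Vgll2 are left out because all 3 of their Hdac2 cKO libraries were at 0, and the bars of Acta1, Mb, Xirp2 and Tnni2 are among the longest.

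Fibre classes, assigned from textbook knowledge, overlapped in the plot of fold changes. Fast genes had a median log2 fold change of -3.56 (11 genes, 10 without overlap), slow genes of -1.97 (7 genes, 6 without overlap) and genes shared by fibre types of -1.95 (22 genes, 14 without overlap). Actc1, the cardiac-type member, was at -4.45. Over all tested genes 3.91% were lower without overlap, and the contrast was known when the members were chosen. Slow members ranged widely, from -4.23 for Myh7 to -1.21 for Tnni1. Summed over the class, fast genes stood at 7528, 2661 and 2599 in WT and 206, 1019 and 124 in Hdac2 cKO, a ratio of group means of 9.48. Slow genes stood at 810.0, 1097 and 452 against 173, 161 and 177, a ratio of 4.62. Neither sum overlapped between the groups. Within Hdac2 cKO the fast sum was highest in cKO 2 by far, while the slow sum was nearly level. The fast ratio rests on single libraries, at 25.8 without cKO 2 and 5.85 without WT 1, while the slow ratio ran from 3.70 (without WT 2) to 5.60 (without WT 3). Without WT 2 the median log2 fold changes were -3.81 for fast, -1.57 for slow and -2.36 for shared genes, and without WT 3 they were -4.11, -2.58 and -2.02.

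Fast and slow genes were then set against each other per kilobase within each library. Over the 7 pairs the fast genes made up 91.8, 68.1 and 87.8% of the summed level in WT and 45.9, 86.4 and 35.1% in Hdac2 cKO. Thus cKO 2 had the balance of a WT library, and the groups overlapped. On the log2 scale the ratio of fast to slow was 3.48, 1.09 and 2.84 in WT and -0.24, 2.67 and -0.89 in Hdac2 cKO, a difference of -1.95 between the means. Leaving out each library in turn gave differences from -3.03 (without cKO 2) to -1.25 (without cKO 3), so cKO 2 and cKO 3 each moved this value by more than 1.5 times. Without the troponin C pair, whose fast gene was nearly undetected, the fast share was 93.3, 76.4 and 89.7% in WT and 58.5, 90.8 and 43.3% in Hdac2 cKO, and the log2 difference was -1.73. The difference had another sign among the libraries high in Eif2s3y (WT 2 and WT 3 against cKO 2), at 0.71. Among those low in it (WT 1 against cKO 1 and cKO 3) it was -4.04. Each comparison has 1 library in 1 of its groups, so sex and that library cannot be told apart. The part of sex in the muscle values was not tested.

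Single pairs behaved unevenly. The fast gene made up 92.8, 90.2 and 82.2% in WT and 62.8, 92.9 and 13.1% in Hdac2 cKO for Tnnt3 with Tnnt1. For Tnni2 with Tnni1 the share was 96.2, 89.6 and 94.0% against 37.5, 88.2 and 0%. In both troponin pairs cKO 1 and cKO 3 lay below all WT libraries and cKO 2 within or near their range. Myl1 with Myl3 gave 93.9, 50.1 and 83.3% against 15.2, 89.5 and 8.97%, and Mylpf with Myl2 95.5, 62.8 and 88.4% against 67.9, 91.9 and 68.2%. The light chain pairs had their lowest WT share in WT 2, the library with most Myl2 and Myl3. Mybpc2 with Mybpc1 ran the other way, at 40.4, 55.2 and 57.8% against 82.1, 64.1 and 74.2%, and the heavy chains were 94.3 to 99.8% fast over all 6 libraries.

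**Figure D3:**
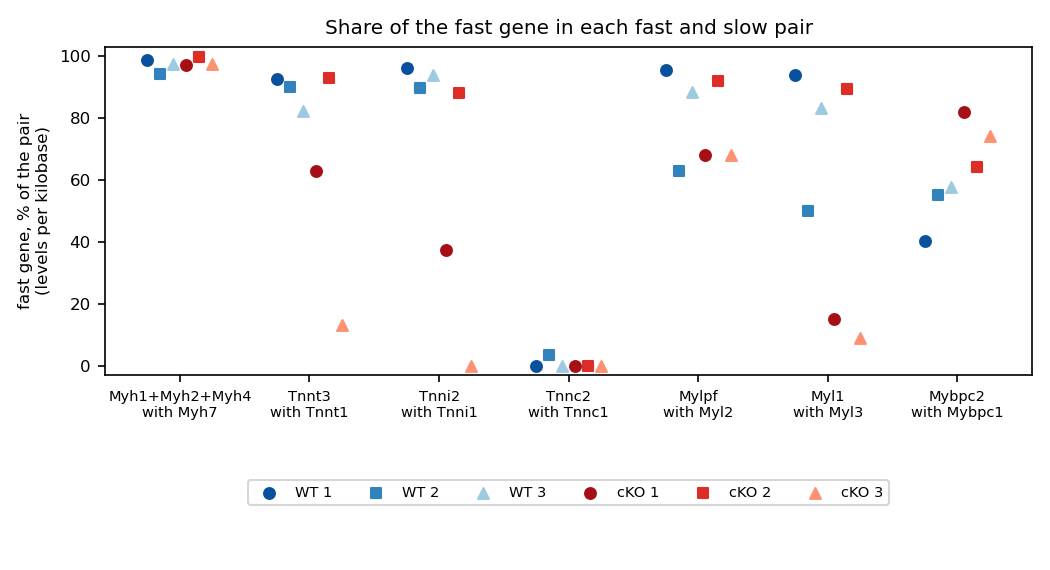
Share of the fast gene in each fast and slow pair (y axis, % of the summed level per kilobase) in the 6 libraries, WT in blue and Hdac2 cKO in red. In the troponin T, troponin I and Myl1 pairs cKO 1 and cKO 3 sit below the WT libraries while cKO 2 sits with them, and the Mybpc2 pair is the one with all Hdac2 cKO points above all WT points.

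Several genes of heart muscle peaked in WT 2, as did some slow members and Actc1. Myh6, the α-myosin heavy chain of the heart, stood at 318, 1602 and 411 in WT and 235, 279 and 450 in Hdac2 cKO. Tnnt2, cardiac troponin T, stood at 25.6, 390.1 and 28.6 against 5.05, 15.7 and 9.09. Mybpc3, the cardiac myosin binding protein, stood at 0, 228 and 45.0 against 5.05, 1.97 and 3.50, and Tnni3, cardiac troponin I, at 30.0, 205 and 49.1 against 27.3, 30.5 and 28.0. WT 2 was the highest library of all 4, from 3.56 to 13.6 times the next highest. Other heart genes did not peak there. Of the 11 genes of the cardiac list, 3 were highest in WT 2. The atrial genes Myl7 and Nppa stood at 17.9 and 5.96 in WT 2. Nppb, a natriuretic peptide, was lowest there, at 416, 363 and 415 against 447, 392 and 892, and Ryr2, the calcium release channel of the heart, was highest in cKO 3, at 1174, 1301 and 975 against 1383, 1259 and 1704.

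Liver transcripts had the same peak. Alb, albumin, stood at 0, 2871 and 89.9 in WT and at 0, 0 and 3.50 in Hdac2 cKO. Apoa1, an apolipoprotein made by liver, stood at 570.3 in WT 2 and at most 3.53 elsewhere, and the fibrinogen genes Fga and Fgb had reads in WT 2 alone (120 and 118 reads). These liver genes were chosen after their values were seen. Of the 8 members highest in WT 2, 4 are slow genes, and Actc1 and Mb are also genes of heart muscle. The part of the heart and liver transcripts in the levels of these members was not tested. Without WT 2, Tnnc1, Myl2, Myl3 and Actc1 kept a negative log2 fold change, at -0.57, -1.18, -1.57 and -3.51.

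**Figure D4:**
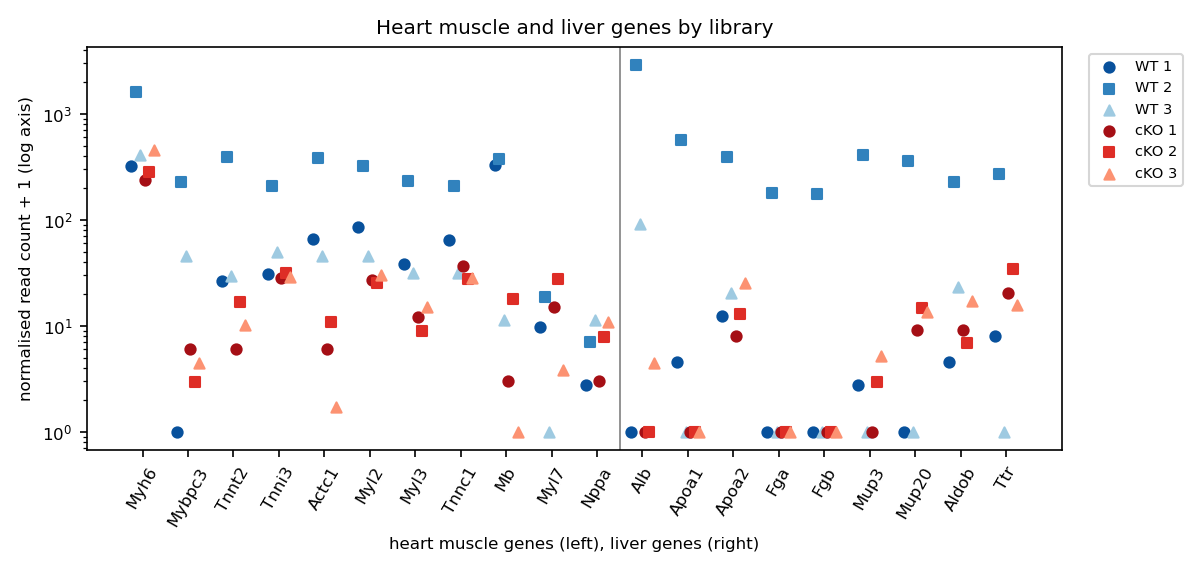
Heart muscle genes (left of the line, members among them) and liver genes (right) in the 6 libraries, as normalised read count + 1 on a log axis. WT 2 (blue squares) is the highest library for every gene shown except Myl7 and Nppa, with Alb at 2871.

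Muscle genes outside the list were taken from 7 sets written from textbook knowledge, 136 genes in all, of which 111 were tested. Of these 111, 76 were lower, against 44.7% of all tested genes. In the lower direction 23 did not overlap and in the higher 2, against 3.91% and 4.63% of all tested genes. The sets were written with earlier results of these data known, so nothing is read from these differences. Other sarcomere and Z-disc genes were lower in 30 of 38, with a median log2 fold change of -0.76. Lmod2, a thin filament leiomodin, stood at 50.3, 31.3 and 16.4 against 2.02, 2.95 and 0. The most abundant genes of this set had small differences and are also expressed outside muscle. Tpm1, a tropomyosin, had a log2 fold change of -0.14 and Capzb, a capping protein, of -0.07.

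Genes that couple excitation to contraction were lower in 15 of 19 (median -0.62). Atp2a1, the calcium pump of fast fibres, stood at 983, 290.4 and 115 against 15.2, 88.5 and 16.8, and Trdn, triadin of the calcium release complex, at 91.8, 49.1 and 95.0 against 3.03, 5.90 and 1.40. Neither overlapped between the groups, and cKO 2 was the highest Hdac2 cKO library of both, as for most fast members. Atp2a2, the pump of slow fibres, heart and many other cells, had a log2 fold change of 0.27. The other energy genes were lower in 17 of 26 with a median of -0.15, and many of them serve all cells. Pgam2, the muscle phosphoglycerate mutase, stood at 199, 246 and 174 against 119, 112 and 45.5.

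Regulators and developmental isoforms had mixed directions. Myogenic factors and satellite cell genes were lower in 3 of 7 tested, embryonic and regeneration genes in 4 of 8, endplate genes in 5 of 7 and cardiac genes in 2 of 6. Of the genes of muscle precursors, Myod1, Myog and Pax7 were at 4.20 or less in every library, but others of the set were not. Chodl stood at 75.0, 46.2 and 63.4 against 177, 114 and 157, higher in Hdac2 cKO without overlap. Calcr and Myf5 stood at 141 and 26.6 in WT 3 and lower in every other library. Embryonic myosin Myh3 stood at 22.1, 11.9 and 16.4 against 19.2, 9.83 and 32.9. The factor Mef2a had a log2 fold change of 0.25 and is also expressed outside muscle.

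Markers of other cell types were set beside the muscle genes. Myelinating Schwann cell markers, 10 of 10 of them tested, were lower in 10 of 10 and without overlap in 6, with sums of 239175 to 357829 in WT and 132073 to 221300 in Hdac2 cKO, and none of them was at 0. Adipocyte markers (9 of 9 tested) summed to 828 to 4371 in WT and 507 to 1592 in Hdac2 cKO, with the highest sum, as for the fast genes, in WT 1. Of them Retn was at 0 in WT 3 and Lep at 0 in WT 2. Fibroblast and tendon markers summed to 33025 to 37664 in WT and 17264 to 32249 in Hdac2 cKO. The tendon gene Tnmd was at 12.1 or less in every library, but other markers of this list were well detected. Scx stood at 278, 417 and 1076 against 294, 278 and 357, and Fmod at 245, 905 and 151 against 307, 610 and 78.3. Cartilage and bone markers (8 of 12 tested) went the other way and were lower in 0 of 8. Their sums were 1009, 829 and 480 in WT and 598, 1827 and 669 in Hdac2 cKO. Macrophage markers were lower in 3 of 9 tested, endothelial and satellite glia markers in 5 of 8 each and oligodendrocyte markers in 4 of 5. Of all tested genes, 44.7% were lower. The part of other tissue in the muscle result was not tested.

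Blood markers varied widely between the libraries of each group. Erythroid markers summed to 53291, 7113 and 2758 in WT and 51225, 77527 and 1340.1 in Hdac2 cKO, and granulocyte markers to 24464, 1318 and 481 against 13859.9, 22328 and 196. WT 1, cKO 1 and cKO 2 were high in both lists, and Alas2 and Mpo, defining markers of the 2 lists, were at 0 in WT 3. Among Hdac2 cKO libraries cKO 2 was thus highest in blood markers and in most muscle genes, whereas cKO 1 was high in blood markers and low in muscle genes. Sensory neuron markers summed to 458369 to 637107 in WT and 475503 to 616193 in Hdac2 cKO, and smooth muscle genes to 6483 to 15679 and 9599 to 13588.

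**Figure D5:**
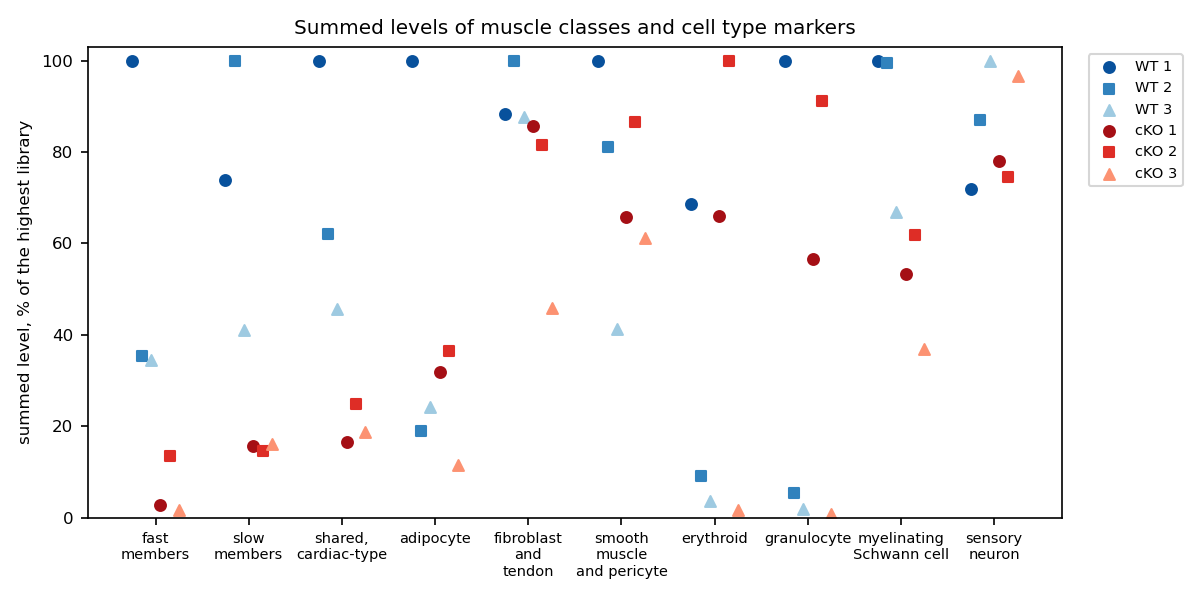
Summed level of each muscle class and of 7 marker lists (x axis) as a percent of the highest library (y axis), with 1 point per library. In the 3 muscle classes all Hdac2 cKO points lie below all WT points, and of the marker lists myelinating Schwann cell and fibroblast and tendon markers show the same separation.

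Across all 18410 genes limma called 0 genes at an adjusted p of 0.05 (smallest adjusted p 0.927), with 341 genes, 180 of them lower, at an unadjusted p under 0.05. It thus called 0 members, as did edgeR. DESeq2 on the recovered reads called 10 members lower, namely Actc1, Myh7, Tpm2, Ttn, Nrap, Tcap, Des, Ckmt2, Igfn1 and Vgll2, where it called 20 of 18978 genes lower (0.105%) and 3 higher (0.0158%). With same-numbered libraries as a block, DESeq2 called 17 members of 35 genes lower (0.172% of 20318) and 0 members of 25 genes higher (0.123%), and limma and edgeR called 0. Without both libraries numbered 3, limma called 0 members, with 0.00574% of 17410 genes called lower and 0.023% higher. Among the other muscle genes DESeq2 called 1 lower, Trdn, and with the block 3, Trdn, Atp2a1 and Pvalb, a calcium buffer that some sensory neurons also express. The call thus depends on the tool, and the members' count is a description since the same contrast chose them.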

How the data were processed

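Bulk RNA-seq of dorsal root ganglia was read in 6 libraries, 3 WT and 3 Hdac2 cKO, grouped and numbered by sample titles. RNA was extracted with Trizol from frozen ganglia, per the labels' protocols. Per the submitters' processing notes, the tools were HISAT2, SAMtools, featureCounts and DESeq2 and the build was mm10; versions, annotation and strand setting are not stated there. In the deposited signal values each library's gene counts had been divided by its own size factor, and whole reads were recovered for 100% of values within a tolerance of 0.01. On these reads DESeq2 called 23 genes and edgeR 0.

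Of 54532 rows, 17327 were at 0 throughout, and 54495 identifiers matched GENCODE release M21 (GRCm38), which gave symbols, coordinates and exon lengths. Promoters came from RefSeq (GRCm38.p6). Protein sequences of paralogs were not used here, and coding sequences from GENCODE were aligned in their place.

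limma 3.58.1 in R 4.3.3 was fitted on log2 (value + 1) (robust variances, intensity trend) for 18410 genes whose value reached 10 in 3 or more libraries, with two-sided p-values adjusted by Benjamini-Hochberg. Alternatives were edgeR 4.0.16 and DESeq2 1.42.0 on recovered reads, a replicate block, other scalings, pseudocounts of 0.5 and 5, 2 filters and leaving out libraries; edgeR with the block, the balance of fast and slow genes without troponin C, class values without each library and values within libraries alike in the Y-linked Eif2s3y (above 10 or not) were added after seeing the data. Scripts were tested on simulated data. The members and gene lists were chosen with earlier results of these data known. Any of the 41 members may be named; other genes are checks of the labels, up to 4 per list with the highest mean level, those called, defining markers, and genes marked as chosen after their values were seen. Lmod2, Pgam2, Myh3, Myod1, Myog, Retn and Lep fall outside that rule and were picked with their values in view.

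For pairing, deviations from the group means were correlated across genes: the 2 libraries numbered 1 gave 0.40, those numbered 2 gave 0.15 and those numbered 3 gave 0.42. Each exceeds 0.1, so same-numbered libraries were treated as pairs, which the labels do not state. WT 1 and cKO 2 correlated by 0.34, so this pairing is uncertain.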

Additional observations from a re-analysis of the deposited data

How the results depend on the processing

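The 41 log2 fold changes were recomputed under 13 other settings, giving 533 values, of which 522 were below 0 and 7 moved by more than 1 SD. A filter does not alter the fold change of a single gene, so values under the 2 filter settings could not move. Vgll2 and Myh7 moved with the pseudocount, and Tnnt1, Tnni1, Des and Ldb3 moved when both libraries numbered 3 were left out. The filter was applied again when libraries were left out, so the set of tested members changed. Over the members still tested, the median ranged from -2.58 to -2.09 when each library was left out. The members without overlap ranged from 28 to 34. Without both libraries numbered 3 the median was -2.57 and 36 members did not overlap. These counts reflect the changed set as well as the library, and groups of fewer libraries separate more easily. They are not comparable with the count over all 6 libraries, and the share over all tested genes was not computed for them. Over all 41 members the median ranged from -2.80 (without WT 3) to -2.13 (without WT 1). The difference in summed level, on the log2 scale, was -2.12 and ranged from -2.39 to -1.76 when each library was left out. The balance of fast and slow genes differed by -1.07 without both libraries numbered 3. It reversed to 0.71 among the libraries high in Eif2s3y and was -4.04 among those low in it, where the summed level differed by -1.24 and -3.09. Each of these comparisons has 1 library in 1 of its groups, so sex and that library cannot be told apart. The cause was not tested. Counts of calls depended on the tool: limma called 0 genes under every scaling, pseudocount and filter run and with each library left out, edgeR with TMM scaling called 0, DESeq2 called 23 genes, 10 members and 1 other muscle gene, and limma without both libraries numbered 3 called 5 genes (4 higher, 1 lower). With the replicate block, which rests on an uncertain pairing, DESeq2 called 60 genes (25 higher, 35 lower), 17 members and 3 other muscle genes, and limma and edgeR 0. Depth limits the lowest members: in cKO 1 and cKO 3, Myh7, Myl1 and Mb rest on 2 reads or fewer. Exon bases shared with opposite-strand genes reach 74.0% in Tnnc2, 31.9% in Mb and 15.48% in Ckm.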
